A study of Canis lupus familiaris with 8 samples.

Results

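Serum amyloid A transcripts were followed in the hearts of dogs with hyperhomocysteinemia (HHcy) and of control dogs. The platform annotation gave 12 of the 23913 probe sets on the array a single symbol of the family: 1 was assigned to SAA1, 2 to LOC751814 and 9 to LOC403585. These are 3 of the 6540 genes named by the annotation, and no probe set with several symbols included any of them. The family was selected on its measured signals, which had already been seen to differ between HHcy and control arrays, so its contrast between HHcy and control dogs is described here without a test. The HHcy group comprised 4 male dogs that drank water with added methionine for 2 weeks, a load that raises the blood level of homocysteine, and the control group comprised 4 male dogs whose hearts were sampled at the same time. All dogs weighed 23 to 27 kg, their breed, age and heart chamber are not given in the sources used here, and total RNA of each heart was hybridised to 1 Affymetrix canine array. An array reports a signal per probe set, an intensity in arbitrary units that cannot be compared between different probe sets.

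Serum amyloid A proteins are small apolipoproteins that travel on high-density lipoprotein and are among the most inducible proteins of the acute phase, the change in plasma proteins that follows infection or injury. The liver makes most of the circulating protein when interleukin 1, interleukin 6 and tumour necrosis factor act through NF-kappaB, C/EBP and STAT3, and macrophages, fat and several epithelia can make it locally. The protein binds innate immune receptors on leukocytes, and fragments of it form the fibrils of amyloid A amyloidosis. In veterinary practice it is measured in dog serum as a sign of inflammation. In the RefSeq gene table of a German Shepherd assembly, LOC751814, LOC403585 and SAA1 are consecutive genes in that order, and both LOC genes carry the synonym SAA. The annotation's gene identifier for SAA1 is not in that table, so SAA1 was placed by its symbol. Of the 12 probe sets, 8 end in _x_at, Affymetrix's mark for sets in which some probes also match other transcripts, and 4 end in _at alone, so signals assigned to one family member may include RNA of another.

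The HHcy 6 array stood apart from the other 7 in its actin 3'/5' ratio and in its cardiomyocyte markers. The actin ratio, which climbs as RNA degrades, was 599.6 on HHcy 6, against 1.69 to 15.3 on HHcy 5, 7 and 8 and 0.378 to 2.49 in control dogs. The summed signal of 9 cardiomyocyte markers was 15257 on HHcy 6, against at least 191526 on the other HHcy arrays and 179266 to 280814 on the control arrays. The GAPDH 3'/5' ratio was 17.2, 10.5, 5.14 and 3.56 on HHcy arrays 5 to 8, against 1.46 to 3.76 in control dogs, so by this measure HHcy 5 was the highest and HHcy 5, 6 and 7 lay above every control. The labelled cardiac tissue showed its defining transcripts on 7 arrays and little of them on HHcy 6, and the family's differences are given below with and without that array, and for some probe sets without both HHcy 5 and HHcy 6. The trimmed mean signal was the same to within 0.1 units on all 8 arrays. The precision of every value is limited by the 4 arrays in each group.

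The single SAA1 probe set, 1592337_at, had signals of 7473, 4081, 1798 and 6638 on HHcy arrays 5, 6, 7 and 8, against 254, 139.7, 159.6 and 88.6 on control arrays 1, 2, 3 and 4. The lowest HHcy signal was 7.07 times the highest control signal, so the groups did not overlap. The means were 4998 ± 2575 in HHcy and 161 ± 69.3 in control dogs (SD, n = 4 each). On the scale of log2(signal + 24), used throughout, the difference between HHcy and control means was 4.65 ± 0.54 (SE), and it was 4.68 without HHcy 6 and 4.31 without HHcy 5 and HHcy 6. The constant of 24 keeps noise at low signals from dominating, and it shrinks differences of dim probe sets.

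LOC751814 had 1 probe set with groups far apart and 1 with groups that met. Probe set 1588795_at, which ends in _at alone, had signals of 2557, 1350.0, 1162 and 3825 on HHcy arrays 5 to 8, against 128, 137, 162 and 157 on control arrays 1 to 4. Its control signals were the most even of the family in relative terms, the highest being 1.26 times the lowest, and every HHcy signal was at least 7.19 times the highest of them. The difference was 3.57 ± 0.40 (SE) on the log2 scale and 3.75 without HHcy 6. Probe set 1586128_x_at had signals of 286, 85.2, 376 and 170.1 on HHcy arrays 5 to 8, against 51.3, 104, 2.37 and 25.7 on control arrays 1 to 4. Here HHcy 6 fell below control 2, the only crossing between the groups, and the difference was 1.92 ± 0.63 (SE), or 2.28 without HHcy 6.

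The 9 LOC403585 probe sets gave unlike answers. A pair of them, 1584314_x_at and 1586126_x_at, had almost no signal in control dogs. The first had 575, 144, 519 and 2017 on HHcy arrays 5 to 8, against 13.0, 9.63, 6.27 and 6.45 on control arrays 1 to 4. The second had 365, 114, 267 and 402 on HHcy arrays 5 to 8, against 11.6, 9.56, 8.73 and 11.4 on control arrays 1 to 4. Every HHcy signal lay above every control signal for both. All control signals of the pair lie under the constant of 24, so no ratio is given, and the size of the difference depends on that constant. For 1584314_x_at it was 4.14 ± 0.74 (SE) with 24, 5.24 with 6 and 2.69 with 96, and for 1586126_x_at it was 3.06 ± 0.37 (SE), 4.03 and 1.78. Without HHcy 6 and with a constant of 24, the differences were 4.74 and 3.41 in the same order.

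**Figure D1:**
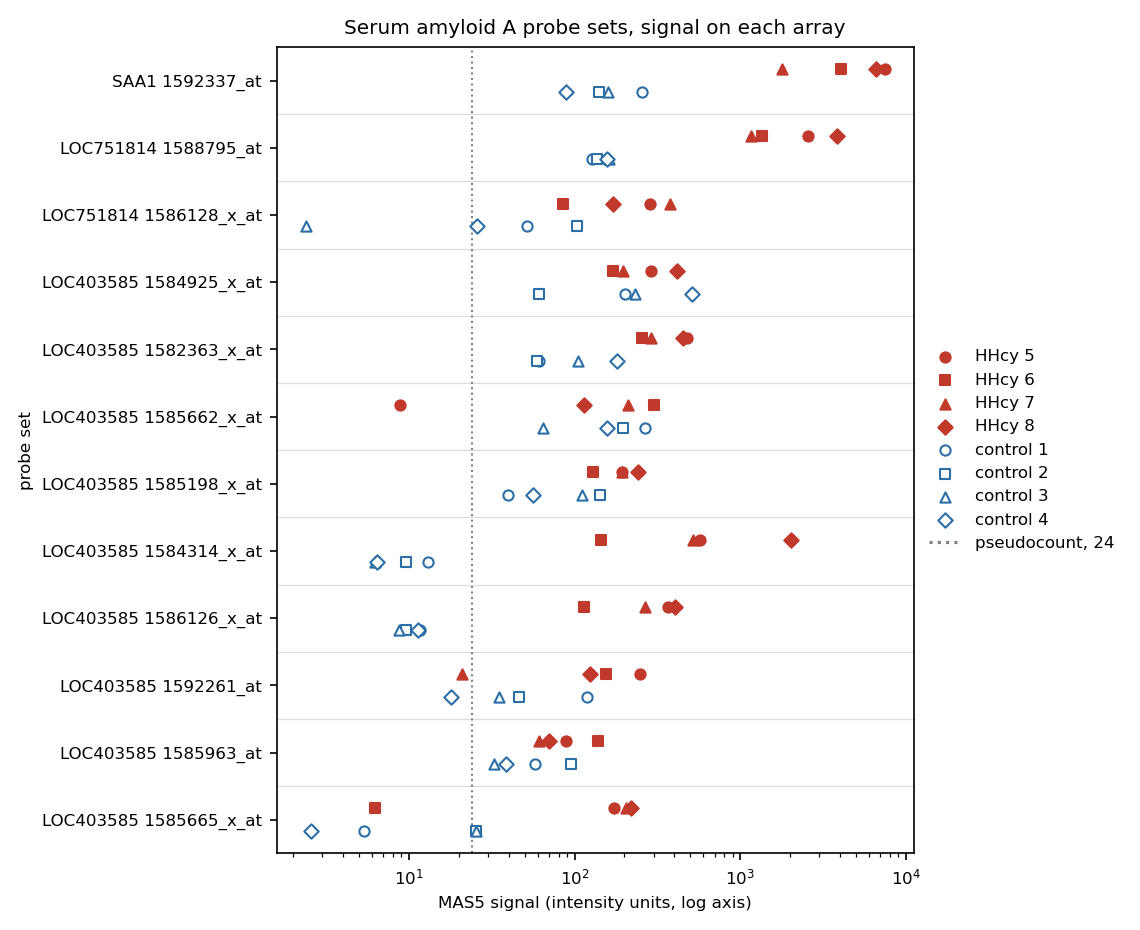
MAS5 signal (intensity units, log axis) of each of the 12 serum amyloid A probe sets on each array, with HHcy arrays as filled red symbols above control arrays as open blue symbols. SAA1, LOC751814 1588795_at and LOC403585 1584314_x_at, 1586126_x_at and 1582363_x_at have every HHcy array to the right of every control array, while the other 7 overlap.

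Another LOC403585 probe set, 1582363_x_at, was visible in both groups and still kept them apart. It had 475, 256, 289 and 449.9 on HHcy arrays 5 to 8, against 61.1, 59.6, 105 and 181 on control arrays 1 to 4, and the lowest HHcy signal was 1.41 times the highest control signal. Its difference was 1.70 ± 0.37 (SE), and 1.84 without HHcy 6. Probe set 1585665_x_at had 172, 204 and 220.4 on HHcy arrays 5, 7 and 8 but 6.26 on HHcy 6, against 5.35, 25.4, 25.5 and 2.55 on control arrays 1 to 4. All HHcy arrays but HHcy 6 were thus above the controls, and the difference of 1.86 ± 0.76 (SE) was 2.58 without HHcy 6.

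The groups also overlapped for the other 5 LOC403585 probe sets. Probe set 1585198_x_at ranged from 128 to 242 in HHcy and from 39.9 to 141 in control dogs, with a difference of 1.01 ± 0.36 (SE), or 1.17 without HHcy 6. Probe set 1592261_at ranged from 20.9 to 249 in HHcy and from 17.9 to 119 in control dogs, and its difference of 0.92 ± 0.67 (SE) was 0.79 without HHcy 6 and 0.21 without HHcy 5 and HHcy 6. For these 2 probe sets 3 HHcy arrays lay above the highest control. The remaining 3 had the smallest differences of the 12: 1585963_at by 0.53 ± 0.32 (SE), 1584925_x_at by 0.30 ± 0.61 (SE) and 1585662_x_at by -0.39 ± 0.82 (SE). Without HHcy 6 these were 0.34 for 1585963_at, 0.47 for 1584925_x_at and -0.81 for 1585662_x_at. Probe set 1585662_x_at had the only mean below that of control dogs, and there the signal of HHcy 5 was 8.87, against 114 to 301 on HHcy 6, 7 and 8 and 64.3 to 265 in control dogs. The sign was not stable for 2 of these probe sets, since the difference was -0.17 for 1584925_x_at without control 2 and 0.29 for 1585662_x_at without HHcy 5.

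Over all 12 probe sets the median difference was 1.78 log2 units, beside 0.15 over the 14301 probe sets that were bright enough to test. The difference was above 0 for 11 of the 12 and above 1 for 8, beside 9.04% of all probe sets for the latter. The median over all probe sets, dim ones included, was 0.17, so most of them were above 0 as well. The lowest HHcy signal exceeded the highest control signal for 5 of the 12, beside 6.31% of all probe sets. The count was 4 with quantile or median scaling and 8 without HHcy 6 or without control 2. The share of all probe sets was not taken under these settings, and groups separate more easily with fewer arrays. The filter on dim signals kept 10 of the 12 and left out 1585963_at and 1585665_x_at. Probe sets 1584314_x_at, 1586126_x_at, 1586128_x_at and 1592261_at owed their place among the 10 to their HHcy signals. Nothing is read from the counts above, because the contrast was used in choosing the family.

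**Figure D2:**
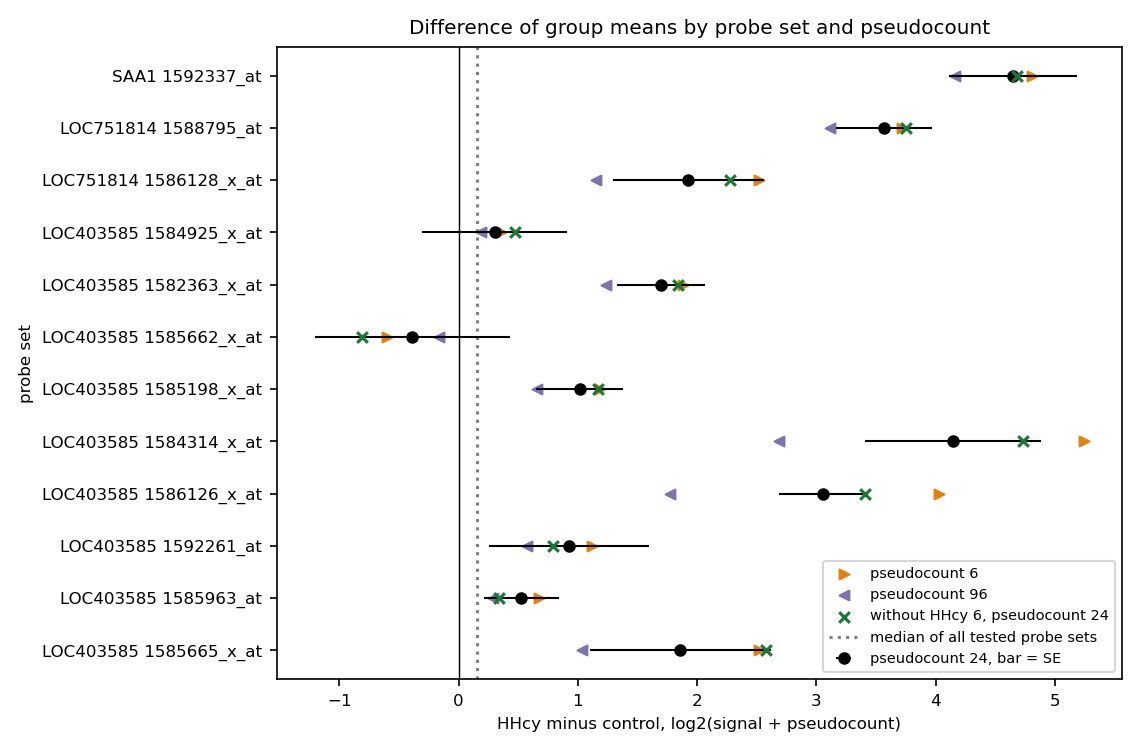
Difference between HHcy and control means on the log2(signal + constant) scale for each probe set, with constants of 6, 24 and 96 and, for 24, without HHcy 6. Bars are standard errors from 4 arrays per group, and the dotted line is the median of all tested probe sets, 0.15. SAA1 and LOC751814 1588795_at move little between settings, whereas LOC403585 1584314_x_at and 1586126_x_at move by over 2 log2 units between constants of 6 and 96.

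The HHcy dogs differed among themselves, and not in the same order for every probe set. SAA1 and LOC751814 1588795_at were lowest on HHcy 7, where they lay 3.38 and 2.81 log2 units above their control means. The 3 LOC403585 probe sets with separate groups were lowest on HHcy 6. On that array 1584314_x_at lay 2.36 and 1586126_x_at 2.01 log2 units above the control mean, against 4.05 and 3.08 on HHcy 7. HHcy 6 was the lowest HHcy array for 7 of the 12 probe sets, HHcy 7 for 4 and HHcy 5 for 1, while HHcy 8 was the highest for 6. The median deviation of the 12 from their control means was 2.23, 1.17, 2.02 and 1.86 log2 units on HHcy arrays 5 to 8, and it lay between -0.18 and 0.075 on the control arrays. The high 3'/5' ratio and the low cardiomyocyte sum of HHcy 6 stand beside these values, and their part in them was not tested. Among HHcy dogs the highest signal was 4.16 times the lowest for SAA1, 3.29 times for LOC751814 1588795_at and 14.0 times for LOC403585 1584314_x_at.

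Likeness between probe sets was measured as the root mean square difference, over the 8 arrays, of log2(signal + 24) less the control mean, so that a small value means alike in both size and pattern. Among the 66 pairs the closest were LOC751814 1588795_at and LOC403585 1586126_x_at, at 0.51 log2 units, although the annotation assigns them to different genes. This closeness depends on the constant, since all control signals of 1586126_x_at lie under 24. The HHcy minus control differences of the pair were 3.71 and 4.03 with a constant of 6, but 3.11 and 1.78 with 96. SAA1 lay 0.91 from LOC751814 1588795_at, 0.99 from LOC403585 1584314_x_at and 1.31 from 1586126_x_at. The rest of the family lay 2.21 or more from SAA1, the farthest being LOC403585 1585662_x_at at 3.83. Probe sets assigned to LOC403585 were not closest to each other as a group. Outside the family, the genes nearest to SAA1 among tested probe sets with 1 symbol were the complement component C3 at 0.87, the antimicrobial lectin REG3A at 0.90, the glutamate transporter SLC1A1 at 1.12, the chemokine CXCL8 at 1.22 and the protease inhibitor SERPINA1 at 1.43. C3 had 8263, 9704, 2990 and 7665 on HHcy arrays 5 to 8, against 516, 263, 569 and 629 on control arrays 1 to 4. C3, REG3A and SLC1A1 were, like SAA1, lowest among HHcy dogs on HHcy 7, and CXCL8 and SERPINA1 were lowest on HHcy 8. The measure favours probe sets with a difference as large as that of SAA1, and it is a description over 8 arrays. It was taken with the constant of 24 only, and distances of probe sets that are dim in control dogs depend on that constant. REG3A, SLC1A1, CXCL8 and SERPINA1 had control means of 20.7, 13.5, 52.0 and 18.4. They owed their place among the tested probe sets to their HHcy signals.

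**Figure D3:**
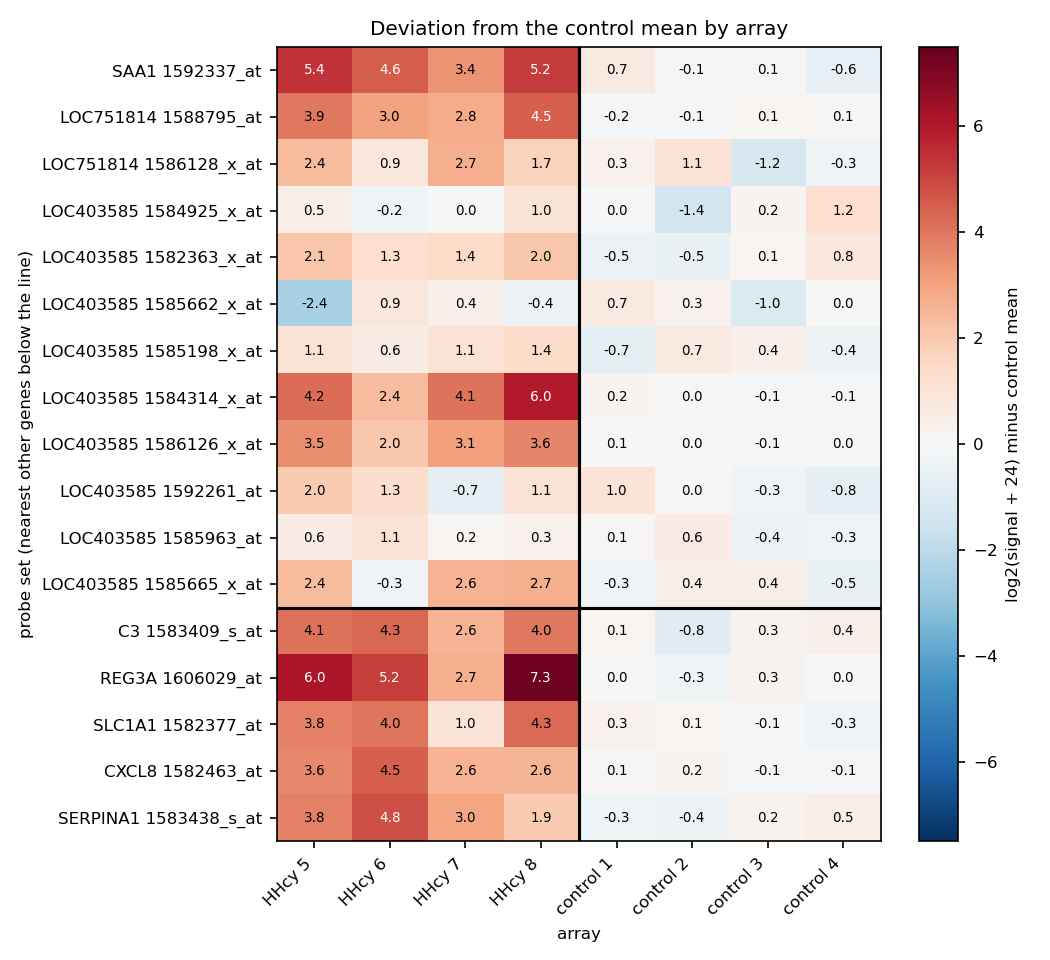
Deviation of log2(signal + 24) from the control mean for the 12 serum amyloid A probe sets and, under the horizontal line, the 5 nearest other genes, with HHcy arrays left of control arrays. SAA1 and LOC751814 1588795_at are palest among HHcy arrays on HHcy 7, and LOC403585 1584314_x_at and 1586126_x_at on HHcy 6.

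Genes that surround serum amyloid A in the acute phase were read from 7 lists with 114 genes in all, of which 54 had a probe set with 1 symbol and 34 were bright enough to test. Each gene is given by its brightest probe set, and the test was limma over all 14301 probe sets, with a gene called at a Benjamini-Hochberg adjusted p under 0.05. C3 was the only one of the 34 called, higher in HHcy, and 0 were called lower, beside 0.0979% of all tested probe sets. At an unadjusted p under 0.05 there were 15 of 34 higher and 0 lower, beside 11.9% and 5.94% of all tested probe sets. Among the 15, SERPINA1, CP, ABCA1 and MMP9 had control means of 18.4, 45.2, 48.6 and 68.3. They passed the filter on dim signals only through their HHcy signals, so nothing is read from these counts. The median difference of the 34 was 0.51 log2 units, beside 0.15 over all. These lists were drawn up with earlier results of the same arrays known.

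Among 8 other acute-phase proteins tested, 1 was called and 7 were not, with 5 of the 8 higher at an unadjusted p under 0.05 and a median difference of 1.41. C3, the central component of complement, rose 13.3-fold, with means of 7156 ± 2906 in HHcy and 494 ± 161 in control dogs (SD, n = 4 each) and a limma adjusted p of 0.00377. Its further tested probe sets differed by 2.21 and 0.91 log2 units and were not called. Without HHcy 8 a further member of the list, SERPINA1, was also called. Of 5 proteins whose plasma level falls in the acute phase limma called 0, with 2 at an unadjusted p under 0.05 and a median of 0.42. The retinol carrier RBP4 had means of 6635 ± 9686 in HHcy and 438 ± 382 in control dogs (SD, n = 4 each), with 21115 on HHcy 6 and 784 to 2725 on the other HHcy arrays. Its difference was 3.40 ± 1.01 (SE, limma adjusted p 0.162), but 2.48 without HHcy 6, 2.53 without control 2, 4.05 without HHcy 8 and 1.96 with array weights, and its other probe set had 1.48. APOA2, a structural protein of high-density lipoprotein, had 0.92 ± 0.36 (SE, adjusted p 0.228).

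Of the cytokines that induce serum amyloid A and the receptors of these cytokines, 4 were tested and 0 were called by limma. The 4 were IL1B, IL1R2, IL6ST and LIFR, with 1 at an unadjusted p under 0.05 and a median of -0.17. Interleukin 1 beta, IL1B, had means of 1568 ± 447 in HHcy and 521 ± 586 in control dogs (SD, n = 4 each), a difference of 2.20 ± 0.66 (SE, adjusted p 0.162), while its other tested probe set differed by 0.038. The receptor LIFR had -0.80 ± 0.48 (SE, adjusted p 0.394) on its brightest probe set and 1.26 on another. The probe sets of IL6, TNF, IL1A, LIF, IL18, IL1RN and TNFRSF1A were left out as dim, so nothing is said of these genes.

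Among 5 signalling proteins and transcription factors tested, limma called 0, with 1 at an unadjusted p under 0.05 and a median of 0.32. The kinase JAK1, which acts below the interleukin 6 receptor, had 0.73 ± 0.29 (SE, adjusted p 0.240), and its other probe sets ran from -0.84 to 0.46. The NF-kappaB inhibitor NFKBIA had -0.77 ± 0.36 (SE, adjusted p 0.290). Of the receptors of the protein 3 were tested and limma called 0, with 1 at an unadjusted p under 0.05. TLR4, the lipopolysaccharide receptor, had 0.79 ± 0.33 (SE, adjusted p 0.248), and the scavenger receptor CD36 had -0.34 ± 0.37 (SE, adjusted p 0.634).

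Of 4 genes of high-density lipoprotein and lipid handling, limma called 0 with all arrays, with 3 at an unadjusted p under 0.05 and a median of 1.10. The cholesterol exporter ABCA1 had a difference of 1.28 ± 0.46 (SE, adjusted p 0.201). Without HHcy 6 the lipoprotein component APOC1 was called, a gene singled out only after its values had been seen. Of 6 genes for amyloid co-deposits and proteases, limma called 0, with 3 at an unadjusted p under 0.05 and a median of 0.92. The lysosomal proteases CTSS and CTSK had 1.28 ± 0.30 (SE, adjusted p 0.126) and 1.29 ± 0.34 (SE, adjusted p 0.141). Further tested probe sets had 0.090 and 0.79 for CTSS and 1.17 for CTSK.

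**Figure D4:**
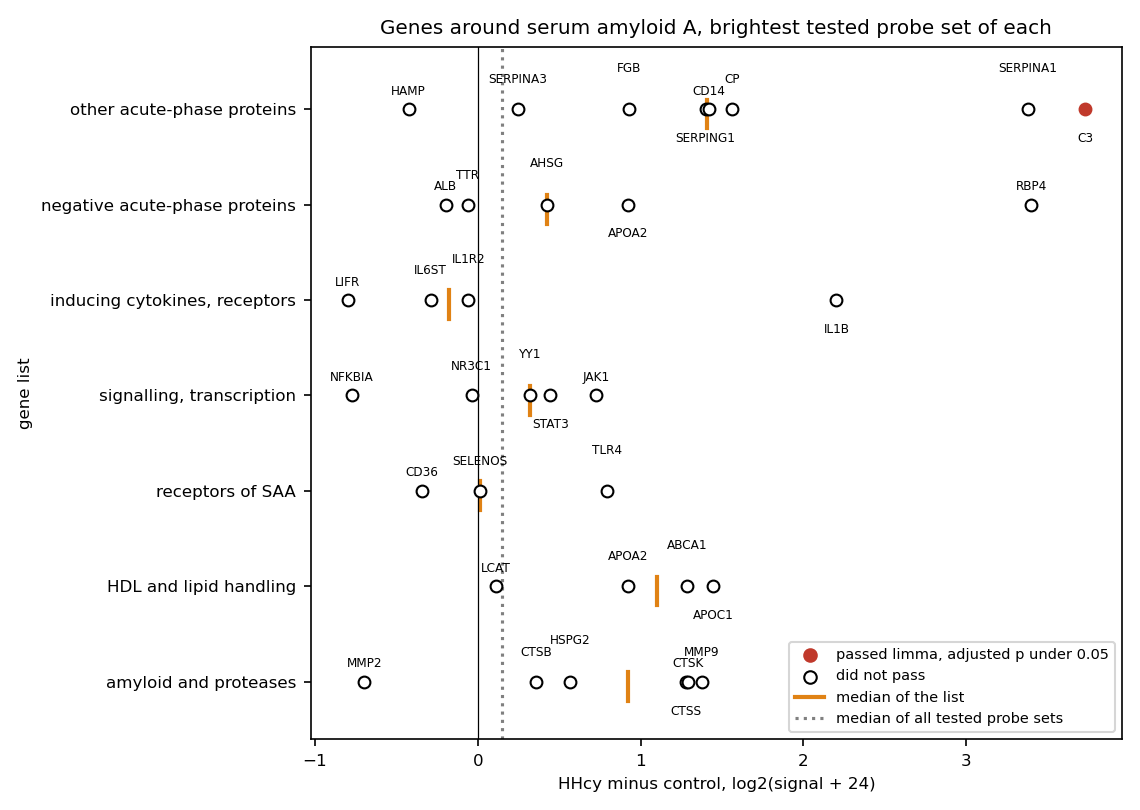
Difference between HHcy and control means, log2(signal + 24), for each tested gene of the 7 lists, by its brightest probe set. The filled red point, C3 at 3.73, is the one gene called, and orange marks give list medians from -0.17 for inducing cytokines and receptors to 1.41 for other acute-phase proteins.

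Markers of other cell types were read on the same arrays, among them types known to make serum amyloid A. The summed signal of 8 hepatocyte markers on the array was 694 to 1311 in HHcy and 641 to 1128 in control dogs, so the ranges overlapped, and albumin, ALB, was 31.6 to 193 in HHcy and 74.3 to 149 in control dogs. For 11 macrophage markers the sum was 12789 to 23714 in HHcy and 6620 to 9792 in control dogs, and these did not overlap. For 5 fibroblast markers it was 17705 to 43002 in HHcy and 11776 to 17684 in control dogs. For 4 epithelial markers it was 896, 1659, 320.0 and 1283 on HHcy arrays 5 to 8, against 125 to 288 on the control arrays. HHcy 7 was lowest both here and for SAA1, but HHcy 6 was highest here and HHcy 5 was highest for SAA1. The macrophage and fibroblast sums were lowest among HHcy dogs on HHcy 8. For 4 adipocyte markers it was 462 to 2231 in HHcy and 620 to 1141 in control dogs, and for 5 endothelial markers 22229 to 32133 in HHcy and 20040 to 28282 in control dogs. Only 2 neutrophil markers were on the array, both too dim to test. No marker gene had a signal of 0 on any array. Macrophage, fibroblast and epithelial sums were higher on every HHcy array than on any control array. For fibroblasts the gap was narrow, 17705 on HHcy 8 against 17684 on control 3. COL3A1 was lower in HHcy, by -0.48 log2 units, while the other fibroblast markers were higher. Single markers were less uniform than the sums. The groups overlapped for the macrophage markers CD68, CD163, CD86, ITGAM and MRC1, and for the epithelial markers EPCAM and CDH1. They also overlapped for the fibroblast markers COL1A1, COL1A2 and COL3A1. The other markers in these 3 sums kept the groups apart. The part of these sums in the SAA1 difference was not tested. In whole tissue, more cells of a type and more RNA per cell cannot be told apart.

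**Figure D5:**
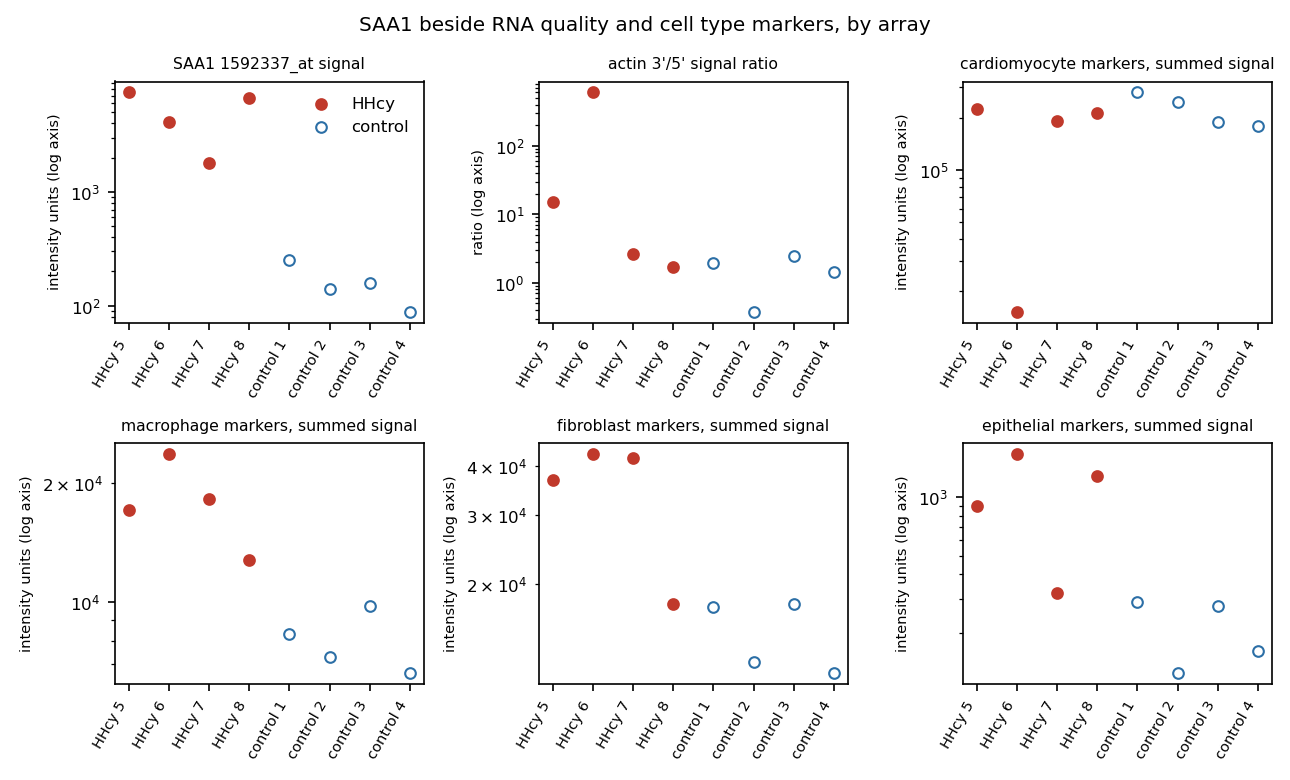
Signal of SAA1 1592337_at, the actin 3'/5' signal ratio and summed signals of 4 sets of cell type markers on each array (log axes), with HHcy arrays left of control arrays. HHcy 6 has the ratio of 599.6 and the low cardiomyocyte sum of 15257, while its SAA1 signal of 4081 lies between those of HHcy 7 and HHcy 8.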

How the data were processed

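The deposited values are probe set signal intensities on a linear scale, which the authors computed with MAS5 (per the submitters' processing notes). The MAS5 version and genome build are not given in the sources used here, and detection calls were not used. The arrays already shared a trimmed mean (2% left out at each end), so they were not scaled further. Arrays were grouped by their titles, and each array's description names a single dog. Symbols came from the platform annotation, updated through gene identifiers of the RefSeq gene table of the UU_Cfam_GSD_1.0 assembly, and were not checked against probe sequences. No sequences or coordinates were used here.

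Values were taken as log2(signal + 24), 24 being near the 20th percentile of all values. Of 23913 probe sets, the 77 control sets were left out and then the dimmest 40% by mean over all arrays, leaving 14301, which were compared between HHcy and control by limma 3.58.1 in R 4.3.3, with a linear model, empirical Bayes variances that follow intensity, and p-values adjusted by Benjamini and Hochberg's method at 0.05. Standard errors of the family's differences come from the 2 group variances, and those of other genes from limma. The procedure was tested on simulated data.

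The family, the gene lists and the rule for named genes were chosen with earlier results of these data known. The rule named all 12 family probe sets, from each list up to 4 called genes or else the 2 of lowest p, and the 5 genes nearest to SAA1. Alternatives were quantile and median scaling, constants of 6 and 96, no filter or the dimmest 60% left out, no trend, array weights, each array left out, and HHcy 5 and HHcy 6 left out together.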

Additional observations from a re-analysis of the deposited data

Results flagged for a closer look

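Among 28 probe sets described, checked in both groups, 2 of the 56 groups held an array far from the other 3 on the log2(signal + 24) scale, where chance alone flags about 1 in 20. For LOC403585 1585665_x_at the gap between HHcy 6 and its nearest HHcy array took up 0.895 of the group's range, with signals of 6.26 on HHcy 6 and 172 to 220.4 on the other HHcy arrays. For SLC1A1 the gap between HHcy 7 and its nearest HHcy array took up 0.844 of the range, with signals of 49.0 on HHcy 7 and 476 to 690 on the other HHcy arrays.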

How the results depend on the processing

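The SAA1 difference stayed between 4.16 and 5.07 log2 units over its 14 alternatives. The median difference of the 12 probe sets was 1.10 with a constant of 96 and 2.20 with one of 6, and 1.58 to 2.06 when 1 array was left out. The number of all probe sets called was 14 with all arrays, 7 with quantile scaling, 22 with median scaling (15 higher and 7 lower), 9 with the dimmest 60% left out, 76 with array weights (61 higher and 15 lower) and 5 without HHcy 5 and HHcy 6. It was 3 to 31 when 1 array was left out: 5 without HHcy 5, 31 without HHcy 8, and 9, 3, 4 and 3 without controls 1, 2, 3 and 4. The median over all tested probe sets was 0.15 as deposited, 0.011 with quantile and -0.19 with median scaling. List genes called numbered 2 with median scaling, array weights and without HHcy 8, the second being SERPINA1, and 2 without HHcy 6 or without HHcy 5 and HHcy 6, the second being APOC1, named after its values were seen. The count was 1 to 2 when 1 array was left out. C3 was called under all 17 alternatives, with a limma adjusted p from 0.000371 to 0.0356. No paired analysis was possible because the groups share no replicate number. With 4 arrays per group and no detection calls, dim probe sets limit what can be seen.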
